A study of Mus musculus with 36 samples.

Results

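Epididymal white adipose tissue (eWAT) of CCL19-KI mice was compared with that of WT mice fed a normal diet (ND) and carrying no ligature. This asks how the CCL19-KI line differed without a high-fat diet (HFD) or periodontitis. The comparison took 6 of the 36 libraries of the series, chosen by their labels, 3 from mice of the genotype Adipoq-CCL19-KI and 3 from WT mice. All 6 mice were C57BL/6 males. They were fed the ND for 10 weeks after the diet groups were formed at 6 weeks of age, and per the study's methods had received it since 4 weeks of age. In CCL19-KI mice the murine Ccl19 gene sits in the Adipoq locus, placed there by CRISPR/Cas9 without disrupting Adipoq, so that adipocytes drive it. The knock-in is 1 line, bred as homozygotes, and the WT mice were bred separately. Effects of the knock-in and of separate breeding cannot be told apart here. The labels name a ligature, tied around a molar for 2 weeks to induce periodontitis, only for other groups. They were followed here, although the series' design text speaks of ligation in all mice. Lymph nodes had been removed from the tissue before RNA extraction.

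CCL19 is a chemokine made by lymph node stroma and mature dendritic cells. Together with CCL21 it binds CCR7 and draws T cells, B cells and dendritic cells towards lymphoid tissue, while the atypical receptor ACKR4 removes both ligands. Adipocytes of eWAT store triglyceride, synthesise fatty acids through a pathway controlled by SREBP-1c, ChREBP and insulin, and secrete adiponectin (Adipoq) and leptin (Lep).

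The 6 libraries held 16717364 to 20248517 reads in genes. Levels are given as normalized CPM (nCPM), of which 1 read equalled 0.0472 to 0.0590. A principal component with 65.7% of the variance set CCL19-KI replicates 2 and 3 apart from the other 4 mice, and a further component with 19.7% set WT replicate 2 apart. CCL19-KI replicates 2 and 3 were alike (r = 0.989 across genes on the log2 scale), whereas CCL19-KI replicate 1 correlated with WT replicate 1 at 0.974 and with the other 2 CCL19-KI mice at 0.929 and 0.927. The library labelled WT replicate 2 carried Ccl19 and Gm2564 at the level of CCL19-KI mice, as described below. The CCL19-KI replicate 3 of the 60% HFD group, which enters the shared estimate of spread, had Ccl19 at 0.687 nCPM and Gm2564 at 0. Labels were kept as deposited, and each main count is given with and without WT replicate 2.

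The first 150 bases of the coding sequence are shown for Ccl19 and its copy Gm2564. For the copy Ccl19-ps3, the first 147 bases of the transcript are shown. All lie on chromosome 4, and reads that fall wholly within these near-identical stretches can hardly be placed by sequence alone. Of the 31-base words of the whole Gm2564 transcript, 77.7% also occur in Ccl19 transcripts. Ccl19-ps3 has no annotated coding sequence, and its transcript starts 3 bases later. Positions and sequences are those of GENCODE M21 on GRCm38, with Ccl19 at chr4:42754525-42756543 on the minus strand, Gm2564 at chr4:42629719-42631714 and Ccl19-ps3 at chr4:42132559-42134171, both on the plus strand. The capital letter marks T2C, the substitution of Gm2564 against Ccl19 within 324 bases, counted from 1 at the first base of the Ccl19 coding sequence. The Ccl19-ps3 transcript was identical to Ccl19 over the 321 bases that could be aligned.
Ccl19: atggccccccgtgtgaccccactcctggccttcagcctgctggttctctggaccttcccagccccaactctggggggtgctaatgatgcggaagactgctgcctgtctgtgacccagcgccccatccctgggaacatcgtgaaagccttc
Gm2564: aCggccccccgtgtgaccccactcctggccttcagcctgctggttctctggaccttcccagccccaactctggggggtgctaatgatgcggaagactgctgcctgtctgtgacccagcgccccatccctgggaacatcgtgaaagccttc
Ccl19-ps3: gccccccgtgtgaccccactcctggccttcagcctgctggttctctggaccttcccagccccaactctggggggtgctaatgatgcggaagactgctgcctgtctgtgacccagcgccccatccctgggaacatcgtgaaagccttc

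Ccl19 stood at 4.51, 19.2 and 1.15 nCPM in WT replicates 1, 2 and 3 and at 16.4, 16.04 and 11.8 nCPM in CCL19-KI replicates 1, 2 and 3. The groups overlapped because the library labelled WT replicate 2 exceeded every CCL19-KI mouse, and Ccl19 did not pass the test (limma, log2 fold change 1.33 ± 0.72 SE, unadjusted p = 0.0862, adjusted p = 0.251, n = 3). Against WT replicates 1 and 3 alone, the CCL19-KI mean of 14.8 nCPM was 5.21 times their mean of 2.83 nCPM, a description only, since WT replicate 2 was left out for this very value. In the other groups of the series, Ccl19 ranged from 0.507 to 2.96 nCPM in 15 libraries labelled WT and, apart from CCL19-KI replicate 3 of the 60% HFD, from 5.57 to 34.6 nCPM in 14 labelled CCL19-KI.

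Gm2564 was at 0, 41.9 and 0 nCPM in WT replicates 1 to 3 and at 37.7, 35.2 and 15.3 nCPM in CCL19-KI replicates 1 to 3. Only WT replicate 2 of the WT mice held any. The gene rose by the criteria of the study, which ask for an unadjusted p not above 0.05 together with a ratio of 1.5 or more, or of 0.67 or less (log2 fold change 3.02 ± 1.19 SE, adjusted p = 0.123). Against a floor of 3 reads per library in WT replicates 1 and 3, the CCL19-KI mean was at least 188-fold higher, again as a description. Ccl19-ps3 was at 0, 6.51 and 0 nCPM in WT and 8.12, 1.03 and 6.01 nCPM in CCL19-KI mice and did not pass (log2 fold change 1.37 ± 0.81 SE, unadjusted p = 0.111). In 17 libraries labelled WT, WT replicate 2 not counted, Gm2564 reached at most 0.160 nCPM and Ccl19-ps3 was at 0. Ccl19 reached 4.51 nCPM at most in these libraries, and at such levels few of its reads were counted at the copies. That does not carry over to CCL19-KI mice, in which reads of the knocked-in gene were not told apart from those of each locus.

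The receptor and the scavengers of the chemokine gave no call. Ccr7 was low in every mouse, at 1.85, 1.45 and 0.8003 nCPM in WT and 0.991, 0.864 and 1.47 nCPM in CCL19-KI mice (log2 fold change -0.15 ± 0.23 SE). Ccl21a, the other CCR7 ligand, was at 3.75, 58.8 and 8.35 nCPM in WT and 5.28, 7.83 and 57.3 nCPM in CCL19-KI mice, so that 1 mouse of each group was high. Ccl21b had the same values as Gm10591 in every library, so its reads cannot be assigned. Ackr4 was at 15.1, 15.3 and 12.6 nCPM in WT and 23.5, 10.2 and 13.4 nCPM in CCL19-KI mice. Of the 6 genes of this axis tested, 0 rose and 0 fell, where 10.3% of all tested genes rose and 10.5% fell.

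A list of 10 genes that separate the genotypes elsewhere in this series was drawn up with those results known. It gave 5 that rose and 2 that fell, against 10.3% and 10.5% of all genes tested. Hist1h4m, a histone H4 copy, was at 0, 24.4 and 0 nCPM in WT and 16.8, 6.97 and 12.6 nCPM in CCL19-KI mice and did not pass (log2 fold change 2.08 ± 1.22 SE, unadjusted p = 0.109). Naip6, of the family of flagellin sensors, was at 0.0544, 4.17 and 0.2001 nCPM in WT and 7.74, 4.81 and 4.89 nCPM in CCL19-KI mice (log2 fold change 1.84 ± 0.64 SE, adjusted p = 0.0893). Ide, which encodes insulin-degrading enzyme, was at 77.9, 200.2 and 74.3 nCPM in WT and 154, 216 and 263 nCPM in CCL19-KI mice (log2 fold change 0.96 ± 0.37 SE, adjusted p = 0.117). For each of these genes WT replicate 2 lay far above WT replicates 1 and 3. Histone H4 copies and the Srp54 genes are near-identical families, so their separate values are uncertain.

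**Figure D1:**
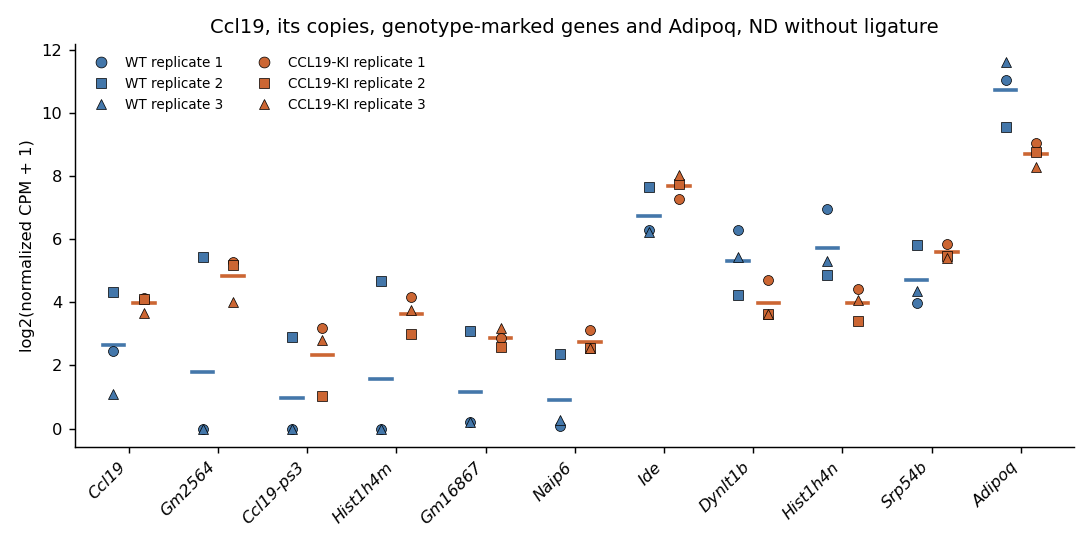
Levels of Ccl19, 2 of its copies, 7 genes that mark the genotype elsewhere in the series and Adipoq, as log2(nCPM + 1) on the y axis, for each of the 6 mice, with bars at the group means on that scale. The square of WT replicate 2 stands far above the other WT mice from Ccl19 to Ide, whereas for Adipoq all 3 CCL19-KI mice lie below all 3 WT mice.

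Over all genes, 16923 of the 24750 in the table were tested. Of these, 1740 (10.3%) rose and 1771 (10.5%) fell in CCL19-KI mice, and 1232 (7.28%) reached an adjusted p below 0.05, with 679 higher and 553 lower. Without WT replicate 2, 1770 (10.6%) rose and 2027 (12.1%) fell, and 817 (4.89%) reached an adjusted p below 0.05. Among genes that rose in all mice 1447 (83.2%) also rose without that library, of those that fell 1465 (82.7%) also fell, and 600 (48.7%) of the 1232 stayed below an adjusted p of 0.05. The filter on low values asks for 1 nCPM or more in 3 of 18 libraries, and 105 of the genes that rose and 52 of those that fell would not have passed it without the 3 mice of the group in which they were higher, nor would 32 of the 1232. The groups did not overlap for 13.4% of genes with higher and 14.6% with lower values in CCL19-KI mice.

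The adjusted calls rested on single mice. Without CCL19-KI replicate 2 limma called 5 genes at an adjusted p below 0.05, and without replicate 3 of that group 9. Leaving out WT replicate 1 left 8 and leaving out WT replicate 3 left 37. The count was 3355 when CCL19-KI replicate 1 was the mouse left out. A limma fit of the 6 mice alone gave 0, with 3388 genes at an unadjusted p below 0.05, and edgeR on the recovered reads of 18 mice gave 1522 (8.99%). When levels were centred on the adipocyte list, a scaling added after the values were seen, 10392 genes (61.4%) rose and 73 (0.431%) fell. The labels do not say that mice of a group came from separate litters or cages. The p-values of the main fit rest on the spread between mice within the 6 unligatured groups. That spread is pooled over 18 libraries and not taken from the 6 compared mice alone. With 3 mice against 3, an exact permutation test of a single gene cannot go below 0.1.

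**Figure D2:**
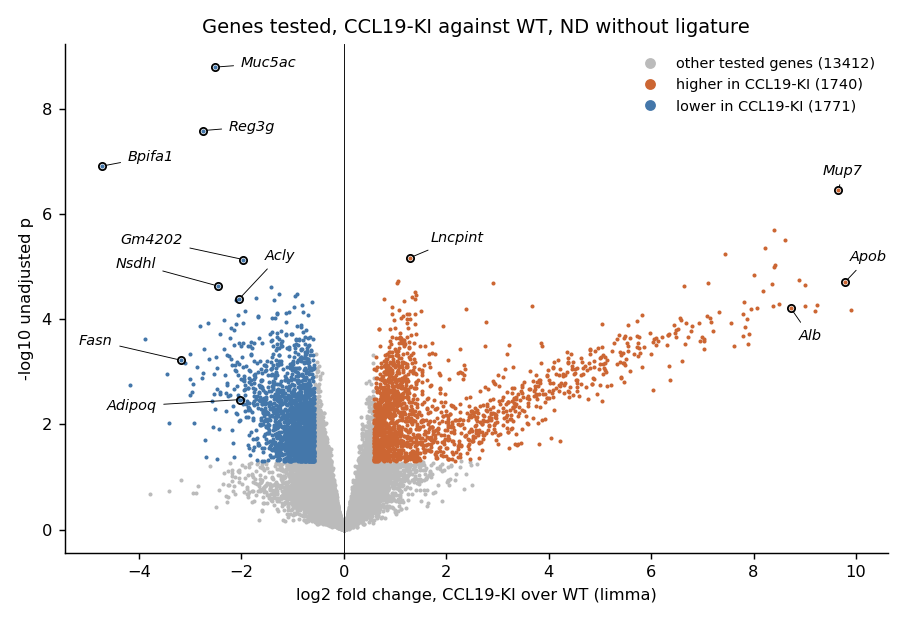
Each point is 1 of the 16923 genes tested, with the log2 fold change of CCL19-KI over WT mice on the x axis and -log10 of the unadjusted limma p on the y axis. Coloured points passed the criteria of the study, 1740 to the right and 1771 to the left, and the arm to the far right holds liver genes such as Mup7, Apob and Alb.

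Adipoq, the host gene of the knock-in, was lower in all CCL19-KI mice. Its level was 2103, 751 and 3115 nCPM in WT replicates 1 to 3 and 526, 436 and 309 nCPM in CCL19-KI replicates 1 to 3, without overlap. The mean was 1989.6 ± 1186 nCPM (SD, n = 3) in WT and 424 ± 109 nCPM (SD, n = 3) in CCL19-KI mice (log2 fold change -2.04 ± 0.58 SE, adjusted p = 0.0484). WT replicate 2 had the lowest Adipoq of the WT mice, and without it the log2 fold change was -2.62. In the other groups of the series Adipoq ranged from 615 to 3937 nCPM in 15 libraries labelled WT and from 300.1 to 1246 nCPM in 15 labelled CCL19-KI, so the genotypes overlapped there.

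Of 11 adipokine genes tested, 3 fell and 0 rose, against 10.5% and 10.3% of all genes tested. Lep was at 4217, 809 and 1513 nCPM in WT and 2199, 128 and 199.5 nCPM in CCL19-KI mice (log2 fold change -2.17 ± 0.85 SE, adjusted p = 0.122). The groups overlapped, since CCL19-KI replicate 1 exceeded WT replicates 2 and 3. Angptl4, an inhibitor of lipoprotein lipase, fell as well (log2 fold change -0.82 ± 0.34 SE, adjusted p = 0.137). Retn, which encodes resistin, was at 419 to 1550.4 nCPM in WT and 311 to 353 nCPM in CCL19-KI mice and missed the criteria (unadjusted p = 0.0512). Cfd, which encodes adipsin, varied within both groups, at 333, 2804 and 4220.1 nCPM in WT and 1040.0, 3110.2 and 2288 nCPM in CCL19-KI mice.

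Genes of mature adipocytes were lower in CCL19-KI mice. Of 19 tested, 11 fell and 0 rose, against 10.5% and 10.3% of all genes tested. The median log2 fold change was -1.05 against -0.09 over all genes tested. Without WT replicate 2, 14 fell, against 12.1% of all genes then. Plin1, the perilipin that coats the lipid droplet, was at 1136, 1197 and 2028 nCPM in WT and 645, 234 and 192 nCPM in CCL19-KI mice (log2 fold change -2.19 ± 0.51 SE, adjusted p = 0.0291). Dgat2, which makes triglyceride, was at 1806, 797 and 1874 nCPM in WT and 544, 112 and 183 nCPM in CCL19-KI mice (log2 fold change -2.64 ± 0.60 SE, adjusted p = 0.0277). In both genes the fall was greatest in CCL19-KI replicates 2 and 3. Pparg, the nuclear receptor of adipocyte differentiation, was at 159, 107 and 214 nCPM in WT and 72.1, 59.9 and 52.8 nCPM in CCL19-KI mice (log2 fold change -1.32 ± 0.32 SE, adjusted p = 0.0309). Fabp4, the fatty acid carrier of adipocytes, was at 9344, 4187 and 8458 nCPM in WT and 9074, 3634 and 2675 nCPM in CCL19-KI mice and did not pass. CCL19-KI replicate 1 lay below all WT mice for 9 of the 19 genes and replicates 2 and 3 both did for 15, against 30.6% and 31.6% of all genes tested. The score of the hepatocyte list described below moved with these genes, at 1.503, 1.64 and 1.596 in WT and 5.28, 10.36 and 10.74 in CCL19-KI mice. With that score as a covariate 0 of the 19 genes fell and their median log2 fold change was -0.00152. Over all 16923 genes, 0 then had an adjusted p below 0.05. The score did not overlap between the groups, so this fit cannot tell covariate from genotype in these mice. In bulk tissue, fewer adipocytes, less RNA per adipocyte and a larger share of other RNA cannot be told apart.

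Fatty acid synthesis moved with them. Of 17 lipogenic genes, 11 fell and 1 rose, against 10.5% and 10.3% of all genes tested, with a median log2 fold change of -1.402. Fasn, the fatty acid synthase, was at 2658, 1394 and 7229 nCPM in WT and 969.6, 185 and 201 nCPM in CCL19-KI mice (log2 fold change -3.17 ± 0.73 SE, adjusted p = 0.0287). Acly, which supplies cytosolic acetyl-CoA, was at 388, 477 and 622 nCPM in WT and 110.1, 128 and 113 nCPM in CCL19-KI mice (log2 fold change -2.05 ± 0.35 SE, adjusted p = 0.0198). The 3 CCL19-KI mice were close together for Acly and spread out for Fasn. Srebf1, which encodes SREBP-1, was at 193, 278 and 291 nCPM in WT and 102, 46.9 and 43.9 nCPM in CCL19-KI mice (log2 fold change -2.05 ± 0.48 SE, adjusted p = 0.0288). Scd2, a stearoyl-CoA desaturase, fell by 2.996 and Pnpla3, a lipid droplet hydrolase, by 3.45 on the log2 scale. Elovl5, an elongase of polyunsaturated fatty acids, was the gene that rose, at 77.2, 53.4 and 59.97 nCPM in WT and 72.8, 199 and 272 nCPM in CCL19-KI mice (log2 fold change 1.32 ± 0.44 SE, adjusted p = 0.0756). It rose through CCL19-KI replicates 2 and 3, while replicate 1 lay within the WT range. Scd1, the main desaturase of adipocytes, was lower in each CCL19-KI mouse but did not pass (log2 fold change -0.86 ± 0.57 SE, unadjusted p = 0.153).

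Genes of cholesterol synthesis and uptake, the targets of SREBP-2, were lower too, with a median log2 fold change of -1.01. Among these 20 genes 12 fell and 0 rose, against 10.5% and 10.3% of all genes tested. Nsdhl, a sterol dehydrogenase, was at 72.7, 54.5 and 48.3 nCPM in WT and 17.8, 5.99 and 8.14 nCPM in CCL19-KI mice (log2 fold change -2.46 ± 0.40 SE, adjusted p = 0.0173). Mvd and Mvk, enzymes of the mevalonate steps, fell by 1.31 and 1.41 on the log2 scale, and Lss, lanosterol synthase, by 1.37. Sqle, squalene epoxidase, was at 12.8, 28.2 and 13.00 nCPM in WT and 5.05, 5.13 and 4.95 nCPM in CCL19-KI mice (log2 fold change -1.56 ± 0.44 SE, adjusted p = 0.0474). CCL19-KI replicate 1 lay below all WT mice for 14 of the 20 genes, against 30.6% of all genes tested.

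**Figure D3:**
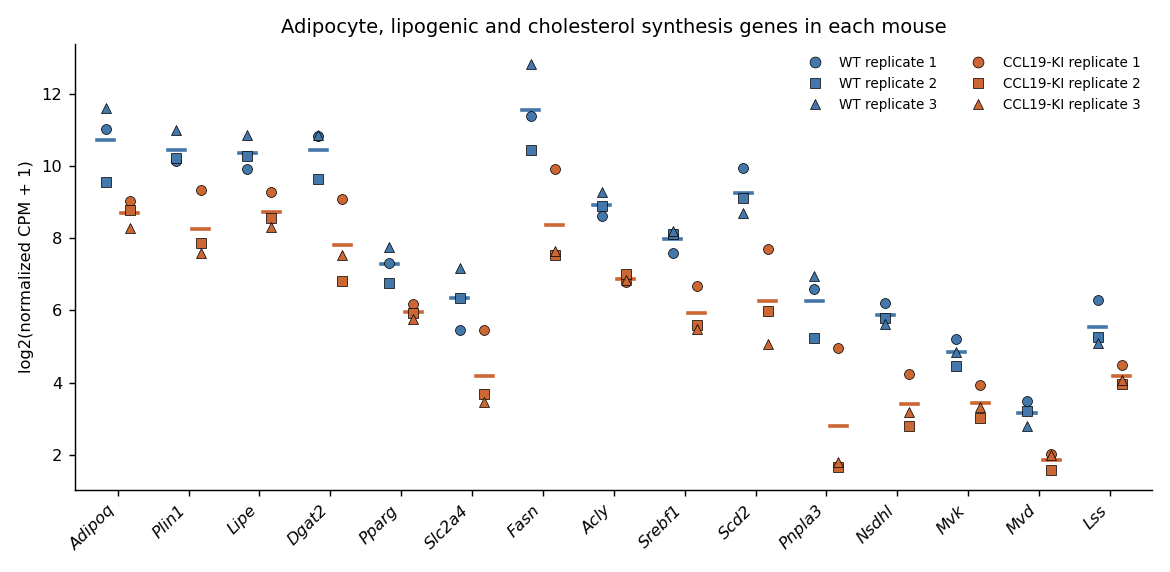
Levels of 15 adipocyte, lipogenic and cholesterol synthesis genes as log2(nCPM + 1) on the y axis for each of the 6 mice, with bars at the group means. All 3 CCL19-KI mice lie below all 3 WT mice for each of these genes, closely together for Acly and with CCL19-KI replicate 1 nearer the WT mice for Plin1, Fasn and Pnpla3.

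Of 14 genes of insulin signalling and glucose uptake, 5 fell and 0 rose, against 10.5% and 10.3% of all genes tested. Slc2a4, the insulin-regulated glucose transporter GLUT4, was at 43.1, 80.9 and 143 nCPM in WT and 42.7, 11.8 and 9.97 nCPM in CCL19-KI mice (log2 fold change -2.14 ± 0.58 SE, adjusted p = 0.0412). CCL19-KI replicate 1 thus lay just below the lowest WT mouse. Hk2, hexokinase 2, was at 99.1, 148 and 146 nCPM in WT and 35.3, 22.4 and 14.03 nCPM in CCL19-KI mice (log2 fold change -2.47 ± 0.59 SE, adjusted p = 0.0296). Of 8 genes tied to fat expansion 5 fell, with a median log2 fold change of -1.68. CCL19-KI replicate 1, however, lay below the WT mice for 0 of them, against 30.6% of all genes tested. Npr3, the clearance receptor of natriuretic peptides, was at 1768, 1009 and 1577 nCPM in WT and 1255, 127 and 231 nCPM in CCL19-KI mice (log2 fold change -2.08 ± 0.65 SE, adjusted p = 0.0634).

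The largest rises were of genes known from liver. Alb, albumin, was at 5.55, 7.85 and 13.4 nCPM in WT and 397, 11700.2 and 13696 nCPM in CCL19-KI mice (log2 fold change 8.73 ± 1.57 SE, adjusted p = 0.01999). Apob, the structural protein of VLDL, was at 0.979, 0.668 and 0.4501 nCPM in WT and 124, 3609 and 7311 nCPM in CCL19-KI mice (log2 fold change 9.79 ± 1.58 SE, adjusted p = 0.0173). Both were higher in each CCL19-KI mouse than in any WT mouse and far higher in replicates 2 and 3 than in replicate 1. Mat1a, the methionine adenosyltransferase of liver, had a log2 fold change of 9.896, Mup7 of 9.66, Bhmt of 9.19, Mug1 of 9.01, Cps1 of 9.000, Serpina1c of 8.88 and Mup19 of 8.61. The Mup (major urinary protein) and Serpina1 genes are near-identical families whose separate levels are uncertain.

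The 250 bases before the transcription start of Adipoq, which drives the knock-in, and of Alb are shown from RefSeq on GRCm38.p6, because Adipoq fell while Alb rose. They lie at chr16:23146286-23146535 and chr5:90460620-90460869, both on the plus strand. Capitals mark GTTAAT, the core of the site of the liver factor HNF1, searched on both strands.
Adipoq: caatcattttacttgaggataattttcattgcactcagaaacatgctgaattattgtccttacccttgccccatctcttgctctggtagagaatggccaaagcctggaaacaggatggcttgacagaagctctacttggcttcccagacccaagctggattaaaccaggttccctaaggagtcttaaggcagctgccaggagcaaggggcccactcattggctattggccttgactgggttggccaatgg
Alb: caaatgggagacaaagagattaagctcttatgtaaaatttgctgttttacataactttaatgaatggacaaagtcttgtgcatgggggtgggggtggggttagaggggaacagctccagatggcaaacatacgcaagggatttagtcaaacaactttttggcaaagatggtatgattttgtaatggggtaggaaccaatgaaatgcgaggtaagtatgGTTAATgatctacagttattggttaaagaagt

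The motif occurred in the Alb and not in the Adipoq window. The window of Apob, which rose as well, held it on neither strand. Windows of this length held the motif for 7.49% of 27025 genes. By list, it was present for 7 of 16 hepatocyte genes, 2 of 10 pancreas genes and 0 of 11 adipocyte genes. A match describes the letters in the window only.

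Of 20 hepatocyte genes 18 rose and 0 fell, against 10.3% and 10.5% of all genes tested. The 18 had an adjusted p below 0.05, and the median log2 fold change of the list was 7.84. The exceptions, Pck1 and Cyp2e1, are also expressed by adipocytes and stood at 453, 1752 and 2313 and 116, 1109 and 1525 nCPM in WT mice. The list score, the mean of log2(nCPM + 1) over the genes, was 1.503, 1.64 and 1.596 in WT and 5.28, 10.36 and 10.74 in CCL19-KI mice. Its genes took 0.0585%, 0.309% and 0.3897% of reads in WT and 0.224%, 4.22% and 4.87% in CCL19-KI mice. Over the 36 libraries the median score was 8.79 and 6 libraries were below 2, among them all 3 WT mice compared here. The 11 pancreas genes tested would not have passed the filter without the CCL19-KI mice, so their calls are no support. Among them Ctrb1, chymotrypsinogen, was at 0, 0 and 0 nCPM in WT and 0, 36.7 and 24.9 nCPM in CCL19-KI mice. Of 12 kidney genes 4 rose, against 10.3% of all genes tested.

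With the hepatocyte list score as a covariate, a fit added after the values were seen, 511 genes rose and 481 fell (5.86% of those tested). By limma 0 genes then had an adjusted p below 0.05, and 1023 had an unadjusted p below 0.05. Of the genes that rose without the covariate 121 (6.95%) also rose with it, and of those that fell 92 (5.19%) also fell. Adipoq then had a log2 fold change of -0.36 (unadjusted p = 0.697), Plin1 of -0.30 and Fasn of -0.68. Acly had -1.74 (unadjusted p = 0.0161) and Mvd -1.01 (unadjusted p = 0.0331), neither below 0.05 after adjustment. Of the 19 adipocyte genes 0 fell, of the lipogenic genes 1 and of the cholesterol genes 2. The sign turned for 27 named genes, among them Lep (0.65), Npr3 (0.50), Ide (-0.24), Itgam (0.39) and Ehhadh (-0.80). Every CCL19-KI mouse scored above every WT mouse, so covariate and genotype cannot be told apart in these 6 mice. Whether the hepatocyte genes were expressed in the fat or came with RNA of liver was not tested, nor was their part in the other results.

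Genes of fatty acid oxidation were high in CCL19-KI replicates 2 and 3, the mice with the highest hepatocyte score. Of 20, 5 rose and 0 fell, against 10.3% and 10.5% of all genes tested, with a median log2 fold change of 0.94. With the covariate 0 rose and 1 fell. Ehhadh, a peroxisomal enzyme, was at 41.8, 45.8 and 47.1 nCPM in WT and 41.3, 1035 and 2039.7 nCPM in CCL19-KI mice (log2 fold change 3.29 ± 1.14 SE, adjusted p = 0.0864). Cpt1a, which admits fatty acids to mitochondria, was at 205, 199 and 167 nCPM in WT and 200.5, 463 and 566 nCPM in CCL19-KI mice. Replicates 2 and 3 exceeded all WT mice for 17 of the 20 genes and replicate 1 for 1, against 26.0% and 24.8% of all genes tested. Of 10 thermogenic genes 4 fell and 1 rose, the latter Elovl3, which liver also expresses and which was at 0.661, 42.3 and 80.6 nCPM in CCL19-KI mice.

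Of 16 T and NK cell genes tested 0 rose and 0 fell, where 10.3% of all genes tested rose and 10.5% fell. Cd3e, a T cell receptor subunit, was at 1.03, 0.946 and 0.4001 nCPM in WT and 0.944, 0.8101 and 0.472 nCPM in CCL19-KI mice. Of 16 macrophage genes 2 fell, Itgam, the integrin CD11b, and Cd68, a lysosomal protein, and 0 rose, and without WT replicate 2 4 fell, against 12.1% of all genes then. The macrophage score was 6.68, 5.63 and 6.13 in WT and 6.18, 5.100 and 5.19 in CCL19-KI mice, lowest in CCL19-KI replicates 2 and 3. Of 12 genes of lipid-associated macrophages 2 fell, Itgax and Fabp5, or 4 without WT replicate 2. Spp1, which encodes osteopontin, was at 12.9, 4.62 and 0.9503 nCPM in WT and 1.04, 1.998 and 4.95 nCPM in CCL19-KI mice and did not pass (log2 fold change -0.69 ± 0.74 SE, unadjusted p = 0.369).

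Of 20 inflammatory genes 4 fell and 1 rose, against 10.5% and 10.3% of all genes tested, which also stand beside the counts that follow. Without WT replicate 2, 5 of the 20 fell and 0 rose, against 12.1% and 10.6% of all genes then. Tgfb1, transforming growth factor beta, was at 46.6, 30.3 and 32.2 nCPM in WT and 25.6, 11.4 and 13.1 nCPM in CCL19-KI mice (log2 fold change -1.13 ± 0.30 SE, adjusted p = 0.0399). Il18, an inflammasome cytokine, was the gene that rose, at 5.76, 3.28 and 7.05 nCPM in WT and 16.5, 8.59 and 9.61 nCPM in CCL19-KI mice (log2 fold change 0.98 ± 0.39 SE, adjusted p = 0.122). Of 14 B lineage genes 1 fell, the immunoglobulin heavy chain gene Ighm, at 653, 230.2 and 678 nCPM in WT and 325, 48.3 and 35.9 nCPM in CCL19-KI mice (log2 fold change -2.48 ± 0.66 SE, adjusted p = 0.04097). Most of the list went the other way, as 11 of the 14 had a positive log2 fold change and 3 a negative one. The median was 0.31, against -0.09 over all genes tested. Of 10 MHC class II genes 1 fell, of 12 dendritic cell genes 1 fell, and of 18 interferon-stimulated genes 2 rose and 1 fell.

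Of 6 lymph node stroma genes tested 2 rose, and 0 did without WT replicate 2. Chst4, a sulfotransferase of high endothelial venules, was at 10.98, 5.68 and 7.903 nCPM in WT and 45.3, 16.6 and 18.7 nCPM in CCL19-KI mice (log2 fold change 1.499 ± 0.58 SE, adjusted p = 0.118). Bst1, a stromal ectoenzyme, was at 9.51, 4.68 and 4.45 nCPM in WT and 13.1, 11.6 and 13.6 nCPM in CCL19-KI mice. Neither gene overlapped between the groups.

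All 11 mesothelial genes, from the cells that line the fat pad, had a positive log2 fold change. The median was 1.03 against -0.09 over all genes tested, and 3 rose, against 10.3% of all genes tested. Wt1, a transcription factor of mesothelium, was at 19.5, 15.7 and 22.6 nCPM in WT and 68.9, 50.3 and 37.8 nCPM in CCL19-KI mice (log2 fold change 1.37 ± 0.45 SE, adjusted p = 0.0731). The score was 5.53, 5.86 and 5.69 in WT and 7.51, 6.51 and 6.45 in CCL19-KI mice, highest in CCL19-KI replicate 1. Dpp4, a marker of early adipose progenitors that mesothelial cells also express, was at 103, 87.1 and 93.9 nCPM in WT and 356, 172 and 170.1 nCPM in CCL19-KI mice (log2 fold change 1.201 ± 0.31 SE, adjusted p = 0.0355). With the hepatocyte covariate its log2 fold change was 1.74 (unadjusted p = 0.00512), in a fit where 0 genes had an adjusted p below 0.05. Dpp4 was the gene that rose among 14 progenitor genes, of which 0 fell, against 10.3% and 10.5% of all genes tested. Of the 14, 10 had a negative log2 fold change, and the median was -0.24. Without WT replicate 2, 1 of the 14 rose and 0 had an adjusted p below 0.05.

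Of 11 endothelial genes 2 rose, Kdr, a VEGF receptor (log2 fold change 1.02 ± 0.29 SE, adjusted p = 0.0495), and Prox1, which lymphatic endothelium and hepatocytes express and which was at 0.924, 5.01 and 1.45 nCPM in WT and 4.34, 138 and 183 nCPM in CCL19-KI mice. Over all genes tested 10.3% rose. Of the 11 genes 8 had a negative log2 fold change, or 4 without WT replicate 2. Without that library 0 of the 11 had an adjusted p below 0.05. Of 18 collagen and matrix genes 5 fell, against 10.5% of all genes tested. Col15a1, a basement membrane collagen, was at 629, 469 and 857 nCPM in WT and 332, 49.04 and 77.95 nCPM in CCL19-KI mice (log2 fold change -2.53 ± 0.62 SE, adjusted p = 0.0318). CCL19-KI replicate 1 exceeded all WT mice for 7 of the 18 genes, whereas replicates 2 and 3 lay below all WT mice for 12, against 24.8% and 31.6% of all genes tested.

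All 16 cell cycle genes had a negative log2 fold change, with a median of -0.86 against -0.09 over all genes tested. Of the 16, 6 fell, or 11 without WT replicate 2. Beside these and the counts that follow, 10.3% of all genes tested rose and 10.5% fell, or 10.6% and 12.1% without WT replicate 2. Mki67, a marker of cycling cells, was at 41.3, 12.7 and 25.2 nCPM in WT and 11.8, 5.78 and 10.3 nCPM in CCL19-KI mice (log2 fold change -1.32 ± 0.53 SE, adjusted p = 0.1304). Of 18 clock genes 2 rose, among them Arntl, which encodes BMAL1, and Bhlhe41 fell. Arntl was at 3.97, 4.34 and 2.401 nCPM in WT and 8.21, 11.99 and 5.602 nCPM in CCL19-KI mice (log2 fold change 1.04 ± 0.25 SE, adjusted p = 0.0309). Respiratory chain genes had a median log2 fold change of -0.07, and 2 of 25 fell. Unfolded protein response genes gave 3 falls in 14 and 0 without WT replicate 2, immediate early genes 1 rise in 15, nerve genes 2 falls in 6, of which 1 would not have passed the filter without the WT mice, and skeletal muscle genes 2 falls in 9.

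Markers of tissue next to the fat pad differed between single mice. The epididymis score was 0.35, 8.88 and 1.37 in WT and 0.11, 1.05 and 1.304 in CCL19-KI mice. Gpx5, a secreted epididymal protein, reached 5722 nCPM in WT replicate 2. The smooth muscle score was 7.29 in WT replicate 2, 5.54 in CCL19-KI replicate 2 and 2.72 to 3.204 in the others. Of 8 germ cell genes 2 fell, the protamines Prm1 and Prm2, of which WT replicate 3 held most and which did not pass without WT replicate 2, and 0 epididymis and 0 smooth muscle genes fell. The part of these tissues in the results was not tested.

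**Figure D4:**
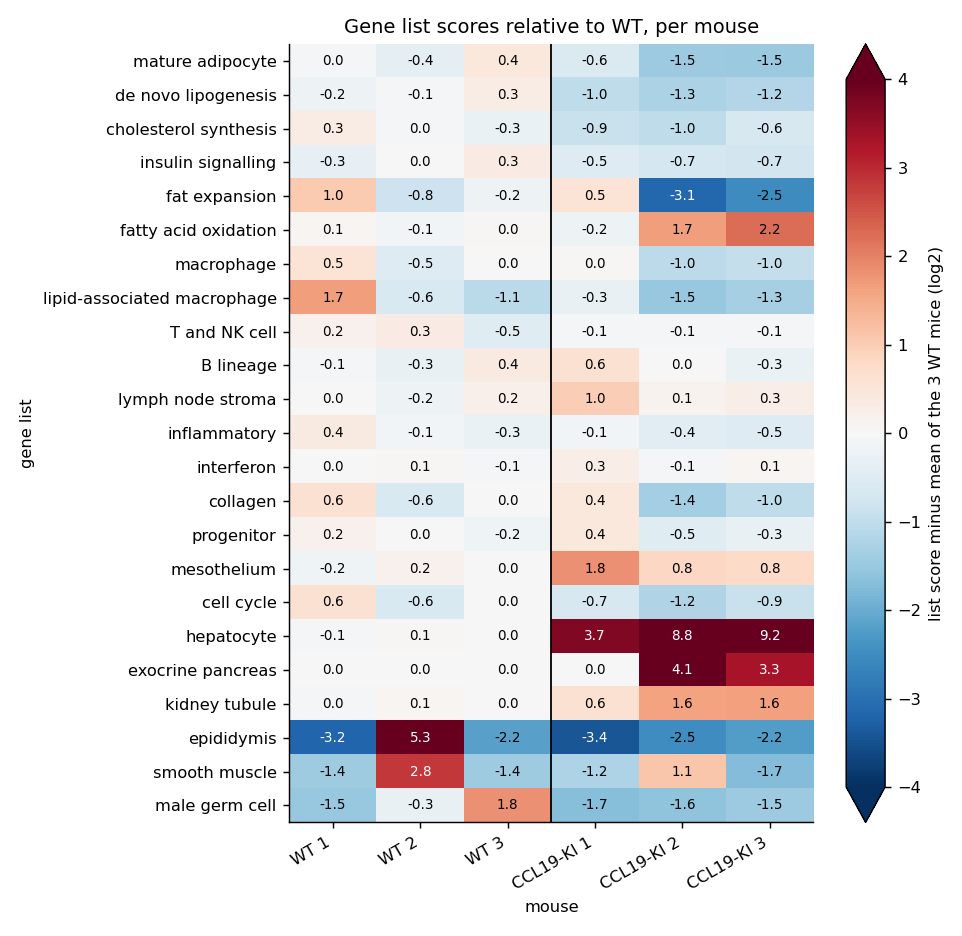
Scores of gene lists in each of the 6 mice, as the difference on the log2 scale from the mean of the 3 WT mice, with the number in each cell and colours that end at 4 in either direction. Adipocyte, lipogenic and cholesterol rows are negative in all 3 CCL19-KI mice, the hepatocyte row is positive in all 3, and the epididymis row is high in WT replicate 2.

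Some genes were at 0 in all CCL19-KI mice. Muc5ac, a secreted mucin, was at 6.91, 3.23 and 4.55 nCPM in WT mice, at least 30.6-fold lower in CCL19-KI mice against a floor of 3 reads per library. Reg3g, an antibacterial lectin, was at 4.24, 10.97 and 3.801 nCPM in WT mice and at least 39.6-fold lower. Bpifa1, a mucosal surface protein, was at 21.8, 77.5 and 9.203 nCPM in WT mice and at least 226-fold lower. All are known from mucosal epithelia, and 29, 28 and 26 of the 36 libraries held 3 reads or fewer of Muc5ac, Reg3g and Bpifa1. They passed the filter on low values only through the 3 WT mice, so their small p-values are no support and their levels are a description. Without WT replicate 2 they were not tested. Among the largest falls without overlap, Gm14744, which would not have passed the filter without the WT mice, had a log2 fold change of -3.89, Tuba1a, an alpha tubulin, of -3.09, Oxtr, the oxytocin receptor, of -3.01 and Ltf, lactoferrin, of -2.95. Lncpint, a long noncoding RNA, was at 9.51, 9.91 and 8.603 nCPM in WT and 18.2, 29.2 and 26.5 nCPM in CCL19-KI mice (log2 fold change 1.29 ± 0.19 SE, adjusted p = 0.0124). Gm4202, a predicted gene, was at 17.7, 20.1 and 16.4 nCPM in WT and 5.19, 3.13 and 3.54 nCPM in CCL19-KI mice (log2 fold change -1.96 ± 0.29 SE, adjusted p = 0.0124).

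The genotype effect was then set against that in other mice of the series. It differed from the effect under a 40% HFD without ligature for 4 genes (0.0236%) at an adjusted p below 0.05, and by limma for 0 without WT replicate 2, with 3215 at an unadjusted p below 0.05. With the genes of the full fit kept there, 3 genes differed, all with a lower effect under the ND. Bpifa1, Reg3g and Muc5ac made up 3 of the 4, so this count is no support for a difference. It differed from that under a 60% HFD for 1457 genes (8.61%), or 853 (5.11%) without WT replicate 2. It differed from that with ligature under an ND for 1355 genes (7.59%), or 954 (5.39%) without WT replicate 2. In the 20 hepatocyte genes the median log2 fold change was -0.33 under a 40% HFD, -5.91 under a 60% HFD and -4.57 with ligature. The effect under the ND without ligature was higher at an adjusted p below 0.05 for 0, 19 and 18 of them, against 5.47% and 2.54% of all genes tested for the latter pair.

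For Adipoq no difference was called. Its log2 fold change was -0.87 ± 0.58 SE under a 40% HFD, -2.03 ± 0.58 SE under a 60% HFD and -2.19 ± 0.50 SE with ligature, with adjusted p of 0.482, 0.998 and 0.915 for the differences. Acly had -0.12, 0.26 and -0.07, against -2.05 here, with adjusted p of 0.171, 0.0136 and 0.00944 for the differences. Nsdhl had 0.26, -0.14 and 0.30, against -2.46 here, with adjusted p of 0.1695, 0.0239 and 0.00204. Both genes were named for small p-values in the comparison under the ND without ligature, whose values also enter these differences. The differences from the effect under a 60% HFD and with ligature are therefore a description. Ccl19 had 2.74, 1.23 and 3.36, against 1.33 here, and no difference was called. The value under a 60% HFD includes CCL19-KI replicate 3, with Ccl19 at 0.687 nCPM. The value here includes WT replicate 2, with Ccl19 at 19.2 nCPM. Both libraries also enter the values of the other genes above.

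**Figure D5:**
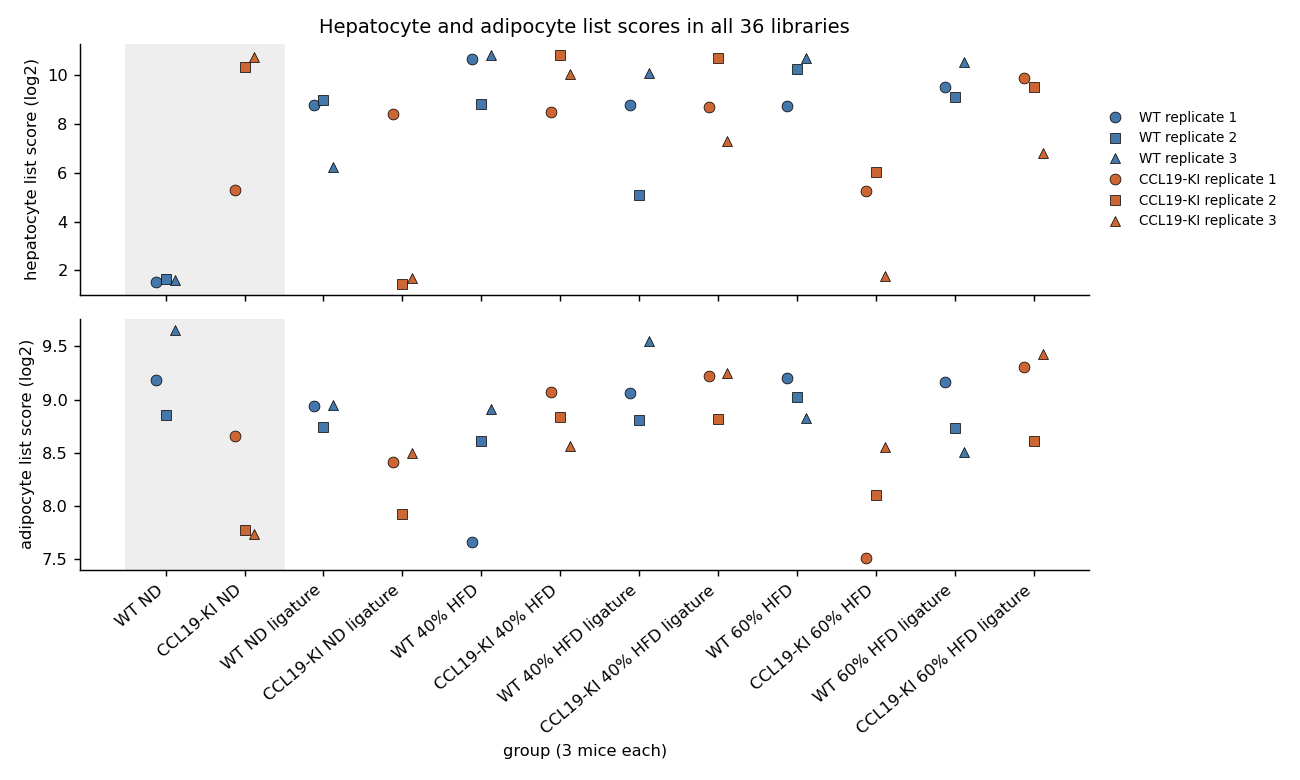
Scores of the hepatocyte list (upper axis) and of the adipocyte list (lower axis), each the mean of log2(nCPM + 1) over its genes, for the 3 mice of each of the 12 groups, with the groups compared here shaded. The 3 WT mice under the ND without ligature lie at 1.503 to 1.64 in hepatocyte score, among the 6 libraries below 2, and CCL19-KI replicates 2 and 3 lie above 10.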

How the data were processed

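RNA of eWAT was sequenced from rRNA-depleted directional libraries as 150-base read pairs on a DNBSEQ-G400. Per the labels and the study's methods the authors trimmed reads with Trimmomatic 0.38, quantified genes with Bowtie2 and RSEM 1.3.0 and normalized with edgeR. The deposited signal is normalized CPM, 24750 genes by 36 libraries. The sources name both mm10 and GRCm39 as the build, so no coordinate of the files was used. In each library 100% of values were whole multiples of the smallest (tolerance 0.01), which gave whole reads.

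Genes at 1 or more in at least 3 of 18 unligatured libraries were fitted with limma 3.58.1 (trend, R 4.3.3) on log2(value + 1), which understates folds of low genes, in 1 model of 6 groups. The effect was compared with that in other groups by interaction terms, and with ligature in a fit of 36 mice. Adjusted p-values are Benjamini-Hochberg over all genes tested. edgeR 4.0.16 on recovered reads and other settings were alternatives. The test was checked on simulated data. Values after ± are the SE of the limma fit or the SD between mice. Floors cover counting error only. The mice, lists and genes were chosen with earlier results of these data known. Named genes were all of the Ccl19, genotype and adipokine lists, the 10 largest rises and falls, the 10 smallest p-values and the leading genes of each list, except some not reported here. Fabp4, Elovl5, Scd1, Sqle, Pck1, Cyp2e1, Cd3e and Spp1 were chosen after their values were seen. Symbols were found for 24626 IDs, and 124 had none.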

Additional observations from a re-analysis of the deposited data

Results flagged for a closer look

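In 54 comparisons of named genes with another condition, the genotype effect differed at an adjusted p below 0.05 by the limma interaction term. Each is given as the log2 fold change under the ND without ligature minus that in the other condition. The named genes were mostly chosen by their change under the ND without ligature, whose values also enter each difference. The differences are therefore a description and no support for a dependence on diet or ligature. Against the 40% HFD the effect was higher for Mup7 (10.57) and lower for Bpifa1 (-4.71), Reg3g (-2.74) and Muc5ac (-2.51). The latter 3 passed the filter on low values only through the 3 WT mice in which they were high, so these differences are values and no support. Without WT replicate 2 this difference had no adjusted p below 0.05 for Mup7, and the other 3 genes did not pass the filter on low values, and with the genes of the full fit kept 3 genes differed.

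Against the 60% HFD the effect was higher for Mup7 (18.88), Mup19 (16.75), Mat1a (16.33), Apob (15.94), Mup14 (15.798), Mup11 (15.61), Serpina1c (15.503), Bhmt (15.39), Mug1 (15.33), Alb (15.28), Cps1 (14.93), Pzp (13.88) and Mup15 (13.62). It was lower for Ltf (-5.18), Bpifa1 (-5.04), Gm14744 (-4.33), Reg3g (-2.79), Muc5ac (-2.605) and Gm4202 (-2.48). Of these Bpifa1, Gm14744, Reg3g and Muc5ac would not have passed the filter without the WT mice of the ND.

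Against the ND with ligature the effect was higher for Apob (15.42), Mat1a (14.94), Cps1 (14.33), Mug1 (13.91), Alb (13.91), Serpina1c (13.74), Mup19 (13.26), Mup7 (13.19), Bhmt (13.14), Pzp (12.83), Mup11 (12.47), Mup14 (12.16), Mup15 (9.85) and Lncpint (1.52). It was lower for Bpifa1 (-8.85), Gm14744 (-6.42), Sec14l3 (-5.96), Ltf (-5.38), D430019H16Rik (-4.73), Reg3g (-4.66), Scd2 (-3.88), Fam83a (-3.87), Muc5ac (-3.84), Oxtr (-3.75), Pnpla3 (-3.74), Tuba1a (-3.56), Ncan (-3.504), Fasn (-3.42), Dgat2 (-2.58), Mogat2 (-2.34) and Gm4202 (-1.81). Groups of 3 mice were not tested for outlying samples.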

How the results depend on the processing

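The 3511 genes that passed the criteria became 2294 with a pseudocount of 5, 6472 with sample quality weights, 1759 at a ratio of 2, 992 and, without WT replicate 2, 1248 with the hepatocyte covariate, and 10465 and 11438 when centred on the adipocyte list. Leaving out 1 mouse gave 2275 to 5000. The 1232 at an adjusted p below 0.05 became 5 to 3355 without 1 mouse, 8380 with quality weights, 0 in the fit of the 6 mice and of the compared mice without WT replicate 2, 2955 in the fit of 36 mice, 0 with the hepatocyte covariate with and without WT replicate 2, 7556 and 9536 when centred, 2001 without CCL19-KI replicate 3 of the 60% HFD, 1941 without both doubted libraries and 771 without WT replicate 2 over the genes of the full fit.

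The 4 genes that differed from the 40% HFD became 12 with a pseudocount of 0.1, 1 with 5, 2 with no filter, 317 by edgeR, 0 to 1943 without 1 mouse and 0 without both doubted libraries. The 1457 for the 60% HFD became 2605 by edgeR, 561 to 2850 without 1 mouse, 675 without both libraries and 854 over the genes of the full fit. The 1355 for the ligature became 2153 by edgeR and 449 to 3260 without 1 mouse.

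Ccl19 passed in the fit of 36 mice and without CCL19-KI replicate 3 of the 60% HFD (both 1.33 on the log2 scale), with quality weights (2.13), and without WT replicate 2 by limma (2.18, also in the compared mice, without both libraries and over the genes of the full fit) and by edgeR (2.45); without 1 mouse it ranged from 0.564 to 2.18. Gm2564 no longer passed by edgeR (1.12), in the fit of the 6 mice (3.02) or with the hepatocyte covariate (1.68), and without 1 mouse it lost its call in 4 of 6 cases (WT replicates 1 and 3, CCL19-KI replicates 1 and 2) and ranged from 2.11 to 4.83.

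With the hepatocyte covariate the log2 fold change changed sign for Ide (-0.24), Lep (0.65), Angptl4 (0.0313), Pnpla3 (0.14), Ncan (0.11), Tmem182 (0.0169), Acot3 (-1.37), Ehhadh (-0.80), Cpt1a (-0.52), Acot1 (-1.64), Elovl3 (-0.96), Cox7a1 (0.39), Npr3 (0.50), Cav1 (0.32), Cav2 (0.59), Fgf13 (0.34), Itgam (0.39), Col4a2 (0.39), Col4a1 (0.59), Col5a1 (0.38), Prox1 (-1.73), Slc34a1 (-0.21), Kap (-1.199), Try5 (-0.22), Try4 (-0.23), Ctrb1 (-0.43) and Cela2a (-0.59). The cause was not tested. Of the other named genes 23 kept their call and 72 kept only their direction. Over 122 genes, leaving out 1 mouse kept 578 calls and lost 140, and the other settings kept 1863 and lost 154, with no change of direction. Same-numbered mice deviated together at r = 0.285, 0.357 and -0.0341, and mice of unlike numbers at -0.353 to 0.138. Whether the numbers pair the mice cannot be told from these values. A replicate block gave 3520 genes by the criteria and 1050 at an adjusted p below 0.05. At 3 reads a level of 0.142 to 0.177 nCPM is the limit of detection.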
